A study of Homo sapiens with 27 samples.

Results

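The mRNAs of 10 enzymes of glycolysis and lactate formation, HK1, HK2, GPI, PFKP, ALDOA, TPI1, PGK1, ENO1, PKM and LDHA, were followed across 9 groups of 501mel melanoma cells. They were taken by gene symbol from a table of 13523 genes. All 10 were found, and all 10 passed the filter on low values that left 13052 genes for testing. The choice rested on measured values, because the set was picked with the knowledge that HK2 was lower under Torin in every genotype and was not lower in HBSS. The values of the 10 genes in those treatments are therefore given as a description, without p-values, and the counts of members past the threshold there stand once, beside the share of all genes, with nothing read from them. For genes other than HK2, tests are kept for the comparisons between genotypes and for the differences between responses.

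Glycolysis splits glucose into pyruvate in the cytosol and yields ATP, NADH and carbon for biosynthesis. Hexokinases trap glucose by phosphorylation, phosphofructokinase commits the sugar to breakdown, and lactate dehydrogenase turns pyruvate into lactate, which restores NAD+. Many tumours, melanoma among them, run this pathway fast even when oxygen is present. The kinase complex mTORC1 is known to raise the transcription of glycolytic genes through factors such as HIF1A and MYC, and it holds TFEB and TFE3, relatives of the melanocyte factor MITF, in the cytoplasm.

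501mel is a human melanoma line with high MITF. Parental cells (WT) were non-treated, kept for 12 h in HBSS, a buffered salt solution that supplies glucose but not amino acids, or kept for 12 h with 250 nM Torin, an inhibitor of the active site of mTOR. Cells edited with Cas9 in TFE3 (TFE3 KO), in TFEB (TFEB KO) or in both (DKO) were kept for 12 h as controls or with Torin, and no KO cells in HBSS were analysed here. The labels name DMEM with fetal bovine serum as the medium, whereas the study's methods name RPMI for its human melanoma lines other than HBL, so the medium of the controls, and with it their glucose, was not settled. The study's methods describe the KO lines as selected clones, so clone and genotype cannot be told apart. The WT control is labelled non-treated, whereas the KO controls are labelled as 12 h controls. Polyadenylated RNA was sequenced from the 3′ end, so that 1 read stands for 1 transcript end whatever the length of the transcript. The levels below are normalised read counts on a CPM scale, which corrects for the size of the library.

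Each group was labelled with 3 libraries, but the columns of WT HBSS replicate 3 and WT Torin replicate 1 were the same for every one of the 13523 genes. That shared column was left out under both labels, which left 25 libraries, 2 each for WT HBSS and WT Torin and 3 for every other group. In it HK2 was 63.8 and LDHA 389, and the labels do not settle its group. It had 12917 genes detected, where WT HBSS had 12895 and 12901 and WT Torin 13188 and 13181. Its values summed to 1141420, where WT HBSS had 1088557 and 1093228 and WT Torin 985447 and 982925. In both it lay nearer to WT HBSS. Libraries held 4147050 to 6526392 reads in the genes of the table. The most that a count of 0 allows, 3 reads, corresponds to 0.460 to 0.711 units, a limit that covers counting error only. The members lay far above it, the fewest reads being those of HK2, with 81 to 441 per library. TFE3 was 24.0 ± 0.285 (SD, n = 3) in WT controls, while TFE3 KO had 6.30 ± 1.27 (SD, n = 3) and DKO had 6.35 ± 0.470 (SD, n = 3). TFEB was 3.25 ± 0.827 (SD, n = 3) in WT controls, 1.11 ± 0.485 (SD, n = 3) for TFEB KO and 0.661 ± 0.457 (SD, n = 3) in DKO, and it was also low, at 0.681 ± 0.764 (SD, n = 3), in TFE3 KO. The 7 melanocyte markers (MITF, SOX10, MLANA, PMEL, TYR, DCT and TYRP1) were all in the table, with a summed level of 6196 to 6392 in WT controls, 14300 to 14453 in HBSS and 8031 to 8269 in WT Torin. Their part in the results on glycolysis was not tested. Of the markers of other cells, 2 of 5 for fibroblasts (COL1A1 and LUM, summed level 0.208 to 6.62) and 1 of 3 for immune cells (CD68, 29.5 to 74.2) were in the table, and 0 of 3 for keratinocytes and 0 of 3 for endothelium. With RNA from whole cultures, fewer cells of a type and less RNA per cell cannot be told apart.

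MITF, TFEB and TFE3 bind the E-box CACGTG, and the factors HIF1A and MYC bind sites built on ACGTG and CACGTG. The sequences near the starts of the 10 genes were therefore read from RefSeq (GRCh38.p14), as windows of 300 bases from 250 before to 50 after each annotated start. All 10 genes were matched, with 24 windows in all, and both strands were searched. CACGTG stood in 3 of the 24 windows, 1 each of HK2, LDHA and ALDOA, against 7.26% of the 35116 windows of all genes. ACGTG, which every CACGTG contains, stood in 10 of the 24 windows against 21.4% of all windows. For MITF, TFEB and TFE3 the paper reports a longer consensus, with a T before CACGTG and an A after it. TCACGTG stood in 1 of the 24 windows, that of ALDOA, against 3.71% of all windows. The CACGTG sites of HK2 and LDHA lacked this T on either strand. The paper nevertheless names HK2 among the genes that MITF, TFEB and TFE3 bind. It also reports higher HK2 after MITF was induced in the cell line studied here. Where on HK2 these factors bind was not tested here. CATGTG, also searched, stood in 5 of the 24 windows, of HK1, PFKP and TPI1, against 11.1% of all windows. The HK1 windows among these overlap and hold the same site. Genes with several annotated starts count more than once in all of these shares. The 3 windows with CACGTG are shown because they include the members with the widest differences under Torin, HK2 and LDHA, and one with a narrow difference, ALDOA. One of the 2 windows of TPI1, which was also lower under Torin, holds neither CACGTG nor ACGTG and is shown beside them. Capitals mark CACGTG and ACGTG on either strand. The HK2 window is at chr2:74834920-74835219, that of LDHA at chr11:18394313-18394612, that of ALDOA at chr16:30064247-30064546 and that of TPI1 at chr12:6867281-6867580, all on the + strand. A match is a description and not a bound site, and reads from 3′ ends do not show which start was used.
HK2: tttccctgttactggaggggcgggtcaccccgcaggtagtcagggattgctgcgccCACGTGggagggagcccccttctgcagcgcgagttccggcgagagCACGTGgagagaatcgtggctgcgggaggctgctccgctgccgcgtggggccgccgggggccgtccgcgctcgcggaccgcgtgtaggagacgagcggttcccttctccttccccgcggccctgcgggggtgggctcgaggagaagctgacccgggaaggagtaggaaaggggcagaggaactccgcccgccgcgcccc
LDHA: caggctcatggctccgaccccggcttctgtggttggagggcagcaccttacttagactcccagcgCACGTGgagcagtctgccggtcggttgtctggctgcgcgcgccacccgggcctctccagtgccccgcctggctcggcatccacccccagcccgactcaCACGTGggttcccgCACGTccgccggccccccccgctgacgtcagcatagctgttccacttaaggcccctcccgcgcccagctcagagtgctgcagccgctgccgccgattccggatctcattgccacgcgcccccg
ALDOA: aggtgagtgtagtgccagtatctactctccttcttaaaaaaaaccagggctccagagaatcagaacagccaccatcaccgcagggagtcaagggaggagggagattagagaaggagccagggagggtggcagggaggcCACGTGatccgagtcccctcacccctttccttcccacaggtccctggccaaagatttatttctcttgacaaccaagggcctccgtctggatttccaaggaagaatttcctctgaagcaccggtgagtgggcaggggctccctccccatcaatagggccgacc
TPI1: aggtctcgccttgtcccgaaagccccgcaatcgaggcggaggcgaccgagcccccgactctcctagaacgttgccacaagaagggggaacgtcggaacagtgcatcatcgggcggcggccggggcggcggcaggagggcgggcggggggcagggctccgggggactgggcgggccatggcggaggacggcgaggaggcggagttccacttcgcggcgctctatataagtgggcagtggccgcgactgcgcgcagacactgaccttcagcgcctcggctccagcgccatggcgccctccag
In the HK2 window CACGTG began 194 and 149 bases before the start, in the LDHA window 185 and 87 bases before it, and in the ALDOA window 112 bases before it. The window at the other annotated start of HK2 held ACGTG at 2 places and no CACGTG. The other window of TPI1 (chr12:6867855-6868154) held ACGTG 17 bases before its start. The single window of PGK1 held ACGTG at 3 places, and those of ENO1 and PKM held neither CACGTG nor ACGTG.

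The first question was how the transcripts of the pathway differed under Torin and in HBSS. HBSS took the place of the medium, so loss of amino acids cannot be told apart from loss of the rest of the medium. Under Torin, 9 of the 10 genes in WT, 10 in TFE3 KO, 10 in TFEB KO and 9 in DKO were lower than in the controls of the same genotype, and the widest differences in each genotype were those of HK2 and LDHA. The shares of all genes lower by any amount were 49.9%, 48.4%, 49.8% and 48.4%. In HBSS, 6 of the 10 were lower, beside 51.9% of all genes, HK2 lay within the range of the controls, and HK1 was higher. The summed level of the 10 genes was 6547 ± 308 (SD, n = 3) in WT controls, 5688 and 5690 in the 2 HBSS libraries and 4526 ± 34.6 (SD, n = 2) under Torin. For TFE3 KO it was 6369 ± 237 (SD, n = 3) without drug and 4068 ± 244 (SD, n = 3) with it, for TFEB KO 6311 ± 408 (SD, n = 3) and 4103 ± 274 (SD, n = 3), and for DKO 6226 ± 73.7 (SD, n = 3) and 4384 ± 185 (SD, n = 3). In each genotype the Torin libraries did not overlap the controls in this sum.

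**Figure D1:**
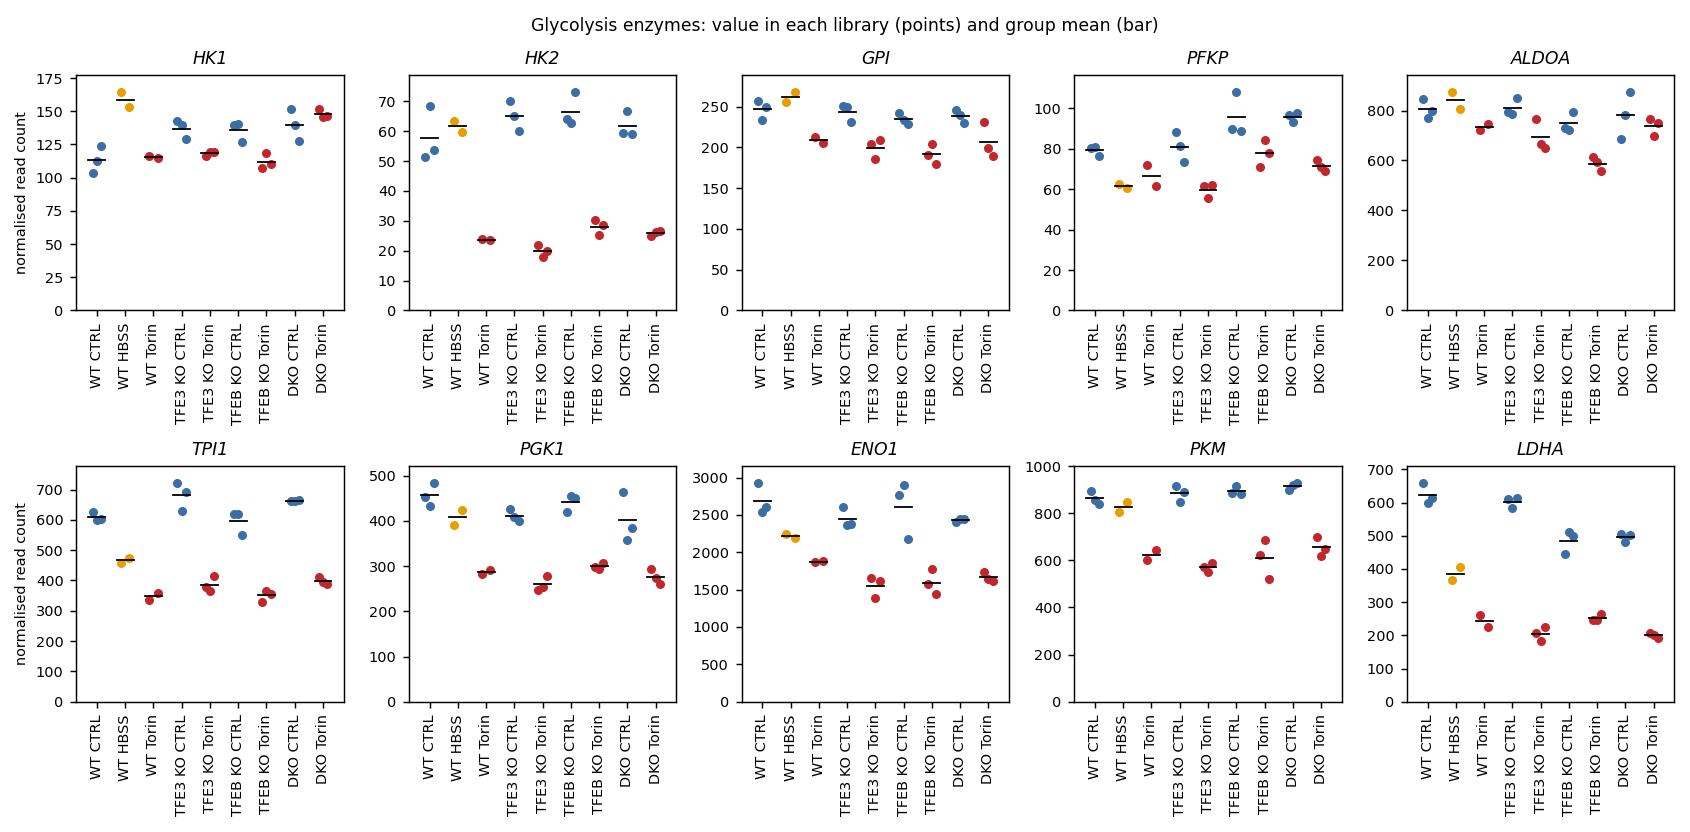
Normalised read count (y axis, from 0) of each of the 10 glycolysis enzymes in each library (points), by group (x axis), with the group mean as a bar; control libraries are blue, HBSS yellow and Torin red. HK2 lies at 18.0 to 30.2 in the 11 Torin libraries and at 51.3 to 73.1 in the other 14, whereas HK1 overlaps between Torin and control in WT and in DKO.

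HK2 (chr2:74834127-74893359, + strand) encodes the inducible hexokinase that binds mitochondria and is high in many tumours. Its level was 51.3, 68.3 and 53.9 in the WT controls, 63.5 and 59.6 in HBSS, and 23.9 and 23.5 under Torin. In TFE3 KO it was 70.1, 65.0 and 60.2 in controls and 22.0, 18.0 and 19.8 under Torin, in TFEB KO 64.0, 62.6 and 73.1 against 30.2, 25.3 and 28.5, and in DKO 59.5, 66.6 and 59.0 against 24.9, 26.4 and 26.6. The 2 HBSS libraries lay inside the range of the WT controls, and all Torin libraries lay below all others. On the log2(value + 1) scale HK2 differed by -1.24 ± 0.13 (SE) with Torin in WT, by -1.66 ± 0.11 (SE) in TFE3 KO, by -1.22 ± 0.11 (SE) in TFEB KO and by -1.22 ± 0.11 (SE) in DKO, and by 0.10 ± 0.13 (SE) in HBSS. These are levels 2.36, 3.16, 2.33 and 2.32 times lower under Torin. Leaving out any 1 library gave -1.32 to -1.12 in WT and -1.73 to -1.59 in TFE3 KO. With the shared column counted as WT Torin, the difference in WT was -0.78.

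The order of the 9 groups in HK2 was TFEB KO control (66.6 ± 5.71, SD, n = 3), TFE3 KO control (65.1 ± 4.96, SD, n = 3), DKO control (61.7 ± 4.24, SD, n = 3), WT HBSS (61.6 ± 2.73, SD, n = 2), WT control (57.8 ± 9.17, SD, n = 3), TFEB KO Torin (28.0 ± 2.49, SD, n = 3), DKO Torin (25.9 ± 0.897, SD, n = 3), WT Torin (23.7 ± 0.313, SD, n = 2) and TFE3 KO Torin (19.9 ± 2.01, SD, n = 3). Neighbours among the first 5 overlapped, as did TFEB KO Torin and DKO Torin. The libraries of WT control and TFEB KO Torin, of DKO Torin and WT Torin, and of WT Torin and TFE3 KO Torin did not overlap.

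HK1 (chr10:69269984-69401884, + strand), the housekeeping hexokinase, did not follow HK2. Its level was 103, 112 and 124 in WT controls, 165 and 153 in HBSS, and 116 and 114 under Torin. The HBSS libraries were above all WT controls, a log2 difference of 0.49 ± 0.09 (SE) or 1.40-fold, and the Torin libraries lay among the controls, with a log2 difference of 0.03 ± 0.09 (SE). Under Torin, HK1 was lower by a log2 difference of -0.21 ± 0.08 (SE) in TFE3 KO and -0.27 ± 0.08 (SE) in TFEB KO, and in DKO it differed by 0.08 ± 0.08 (SE).

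GPI (chr19:34359480-34402413, + strand), which converts glucose 6-phosphate to fructose 6-phosphate, was 257, 234 and 249 in WT controls, 255 and 268 in HBSS, and 212 and 205 under Torin. Its log2 differences under Torin were narrow, -0.30 to -0.21 over the 4 genotypes, and -0.08 in WT with the shared column counted as WT Torin. In DKO the highest Torin library (231) reached the range of the controls (230.1 to 246). PFKP (chr10:3066333-3137718, + strand), the platelet type of phosphofructokinase, was 80.5, 81.0 and 76.7 in WT controls, 62.4 and 60.5 in HBSS, and 72.0 and 61.4 under Torin. Both treatments lay below all WT controls, with log2 differences of -0.36 ± 0.11 (SE) in HBSS and -0.25 ± 0.11 (SE) under Torin in WT. The latter was -0.37 without WT Torin replicate 2 and -0.14 without WT Torin replicate 3. In the KO cells PFKP differed by -0.43 to -0.29 under Torin.

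Of the enzymes of the middle of the pathway, TPI1 and PGK1 were lower under Torin in every library and ALDOA by less. ALDOA (chr16:30064164-30070457, + strand), the aldolase that splits fructose bisphosphate, was 846, 771 and 799 in WT controls, 874 and 807 in HBSS, and 722 and 747 under Torin. Its log2 difference under Torin was -0.13 ± 0.08 (SE) in WT, -0.22 ± 0.07 (SE) in TFE3 KO, -0.35 ± 0.07 (SE) in TFEB KO and -0.07 ± 0.07 (SE) in DKO, where the libraries of the groups overlapped. The WT difference was -0.08 with the shared column counted as WT Torin, and -0.07 with edgeR. TPI1 (chr12:6867119-6870948, + strand), which interconverts the triose phosphates, was 625, 599 and 603 in WT controls, 458 and 475 in HBSS, and 337 and 359 under Torin. The 3 WT groups were in separate ranges, with log2 differences of -0.38 ± 0.07 (SE) in HBSS and -0.81 ± 0.07 (SE) under Torin, and the KO cells differed by -0.82 to -0.73 under Torin. PGK1 (chrX:77910739-78129295, + strand), which makes ATP from bisphosphoglycerate, was 453, 434 and 483 in WT controls, 390.3 and 425 in HBSS, and 283 and 291 under Torin. Its difference was -0.16 ± 0.08 (SE) in HBSS, -0.10 without WT HBSS replicate 1 and -0.27 on plain CPM, and -0.67 to -0.54 under Torin over the 4 genotypes.

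ENO1 and PKM act at the end of the pathway. ENO1 (chr1:8861000-8879190, - strand), the main enolase, was 2923, 2545 and 2607 in WT controls, 2250 and 2189 in HBSS, and 1869 and 1880 under Torin. It differed by -0.28 ± 0.09 (SE) in HBSS and by -0.71 to -0.52 under Torin over the 4 genotypes, on the log2 scale. PKM (chr15:72199029-72231819, - strand), the pyruvate kinase of most tissues, was 895, 856 and 839.9 in WT controls, 804 and 848 in HBSS, and 604 and 644 under Torin. HBSS overlapped the controls, with a difference of -0.06 ± 0.08 (SE), and Torin did not, with -0.63 to -0.47 over the 4 genotypes. In WT, PKM differed by -0.285 with the shared column counted as WT Torin. Counts per gene do not separate the 2 splice forms of PKM.

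LDHA (chr11:18394560-18408425, + strand) encodes the M subunit of lactate dehydrogenase. Its level was 658, 599 and 615 in WT controls, 366 and 405 in HBSS, and 262 and 226 under Torin. In TFE3 KO it was 611, 583 and 613 in controls and 206, 184 and 226 under Torin, in TFEB KO 445, 511 and 500.0 against 245, 245 and 263, and in DKO 506, 481 and 501 against 206, 202 and 193. LDHA was thus lower in both treatments, with Torin below HBSS. On the log2 scale it differed by -0.69 ± 0.08 (SE) in HBSS, or 1.62 times lower, and under Torin by -1.36 ± 0.08 (SE) in WT, -1.55 ± 0.07 (SE) in TFE3 KO, -0.95 ± 0.07 (SE) in TFEB KO and -1.30 ± 0.07 (SE) in DKO. With the shared column counted as WT Torin, the difference in WT was -1.13. The level of LDHA in WT Torin, 244 ± 25.6 (SD, n = 2), overlapped those of TFEB KO Torin and TFE3 KO Torin.

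**Figure D2:**
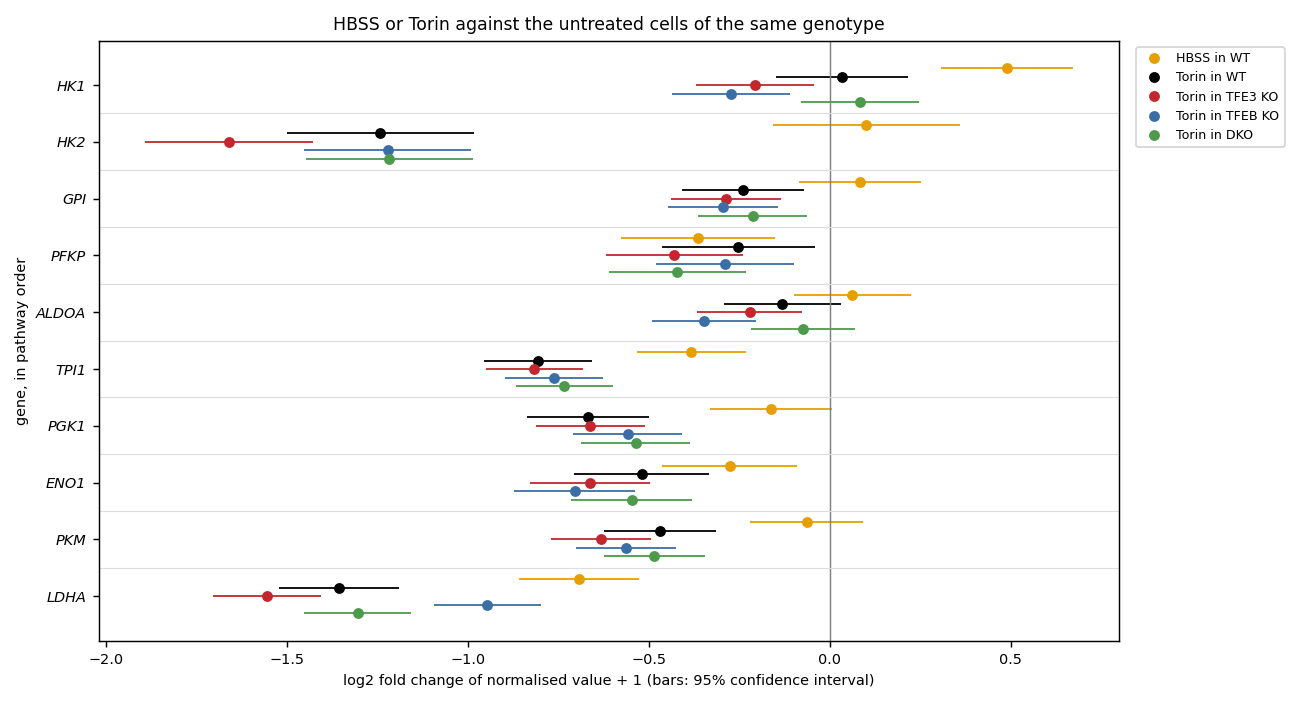
Log2 fold change of each enzyme (y axis, in pathway order) against the controls of the same genotype (x axis, log2 of the normalised value + 1), with 95% confidence intervals of the limma fit as bars, for HBSS in WT (yellow) and for Torin in WT (black), TFE3 KO (red), TFEB KO (blue) and DKO (green). HK2 and LDHA lie farthest below 0 under Torin, from -1.66 to -0.95, and HK2 in HBSS lies at 0.10.

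A gene passed at an adjusted p under 0.05 (limma, Benjamini-Hochberg over 13052 genes), and since the set was chosen on these treatments nothing is read from its counts. Under Torin, 8 members were lower past that mark in WT, where 23.4% of all genes were, 10 in TFE3 KO, where 26.0% were, 10 in TFEB KO, where 21.0% were, and 8 in DKO, where 26.2% were. In HBSS, 4 were lower and 1 higher, where 24.7% of all genes were lower and 23.6% higher. HK2 in all 4 genotypes, and LDHA in all but TFEB KO, were also past 2-fold under Torin. Of all genes, those lower past 2-fold were 4.29% (DKO), 1.65% (TFEB KO), 4.69% (TFE3 KO) and 4.0% (WT). The median log2 difference of the 10 members under Torin was -0.49 in WT, -0.65 in TFE3 KO, -0.56 in TFEB KO and -0.51 in DKO, and that of all genes lay between 0.0013 and 0.023. In HBSS the median was -0.11 for the members and -0.03 for all genes. The HBSS and Torin comparisons in WT share their controls.

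A direct comparison of HBSS and Torin in WT asked which enzymes the treatments left at different levels. HK1, GPI, TPI1, PGK1, ENO1, PKM and LDHA were higher in HBSS than under Torin, and PFKP and ALDOA did not pass the test. For HK2 the rule itself used both treatments, so its difference of 1.34 ± 0.14 (SE) on the log2 scale, or 2.53-fold, is a description. Among the 9 tested members, the difference was widest for LDHA, at 0.66 ± 0.09 (SE) with adjusted p 3.7e-08 (limma), followed by PGK1 at 0.50 ± 0.09 (SE, adjusted p 1.07e-05), HK1 at 0.46 ± 0.10 (SE, adjusted p 0.000161), TPI1 at 0.42 ± 0.08 (SE, adjusted p 2.96e-05) and PKM at 0.40 ± 0.08 (SE, adjusted p 8.93e-05). GPI differed by 0.32 ± 0.09 (SE, adjusted p 0.00301) and ENO1 by 0.24 ± 0.10 (SE, adjusted p 0.044). The difference was -0.11 (95% interval -0.34 to 0.12, adjusted p 0.44) for PFKP and 0.19 (0.02 to 0.37, adjusted p 0.0622) for ALDOA. Of all genes, 26.1% were higher in HBSS past the same mark, beside 7 of these 9 members. The set was chosen with HK2 known in both treatments, and PKM (Pearson r 0.980) and PGK1 (0.972) followed HK2 over group means. Nothing is read from this count, and the p-values are no support for the choice of the set. With the shared column counted as WT HBSS no call changed. With it counted as WT Torin, all of the 7 but LDHA missed the threshold (adjusted p 0.107 for PGK1 to 0.48 for ENO1). On plain CPM, values without the factor per library, GPI (0.18, adjusted p 0.104) and ENO1 (0.09, adjusted p 0.445) missed it. ENO1 missed it too with median-of-ratios scaling (0.0818), edgeR (0.0975) and DESeq2 (0.106), and without any 1 of the 4 libraries of the comparison (adjusted p 0.0934 to 0.158) or without WT control replicate 2, TFEB KO Torin replicate 1 or any DKO control (0.0512 to 0.0609). ALDOA passed without WT control replicate 1 (0.04996) or without DKO control replicate 1 (0.045) or 3 (0.0421).

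The KO lines without drug were compared with the WT controls. HK1 was higher in all 3 KO lines, LDHA was lower in TFEB KO and in DKO, and PFKP was higher in DKO, all by 1.29-fold or less. Clone and control label varied with genotype, and their parts in these differences cannot be told apart. Against WT controls (113 ± 10.2, SD, n = 3), HK1 was 137 ± 6.86 (SD, n = 3) in TFE3 KO, 136 ± 7.63 (SD, n = 3) in TFEB KO and 139.9 ± 12.2 (SD, n = 3) in DKO. These are log2 differences of 0.28 ± 0.08 (SE, adjusted p 0.0201), 0.26 ± 0.08 (SE, adjusted p 0.0212) and 0.30 ± 0.08 (SE, adjusted p 0.00687) by limma, and in all 3 the lowest KO library was above the highest WT control. LDHA was 485 ± 35.4 (SD, n = 3) in TFEB KO and 496 ± 13.3 (SD, n = 3) in DKO against 624 ± 30.7 (SD, n = 3) in WT, with log2 differences of -0.36 ± 0.07 (SE, adjusted p 0.000457) and -0.33 ± 0.07 (SE, adjusted p 0.00114). In TFE3 KO it was 602 ± 16.5 (SD, n = 3), a difference of -0.05 with an interval of -0.20 to 0.10. PFKP was 95.9 ± 2.43 (SD, n = 3) in DKO against 79.4 ± 2.35 (SD, n = 3) in WT (0.27 ± 0.09, SE, adjusted p 0.0478), and TFEB KO, at 95.6 ± 10.9 (SD, n = 3), missed the threshold (0.26, interval 0.07 to 0.45, adjusted p 0.0549).

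Of the 10 members, 1 passed in TFE3 KO, 2 in TFEB KO and 3 in DKO, where 9.41%, 14.6% and 13.1% of all genes passed. Nothing is read from these small counts. HK2 itself differed from WT by 0.18 (interval -0.05 to 0.41) in TFE3 KO, 0.21 (-0.02 to 0.44) in TFEB KO and 0.10 (-0.13 to 0.33) in DKO. The HK2 values are given with no test because the rule used them, though HK2 stands among the 10. The 3 comparisons share the WT controls. The HK1 calls rested on single libraries. In TFE3 KO, HK1 missed the threshold without WT control replicate 1 (adjusted p 0.14) or 2 (0.0535) or TFE3 KO control replicate 1 (0.0987) or 2 (0.082). In TFEB KO it missed without WT control replicate 1 (0.138) or 2 (0.0519) or TFEB KO control replicate 1 (0.0792) or 2 (0.085), and in DKO without WT control replicate 1 (0.0609) or DKO control replicate 1 (0.07). PFKP in DKO missed without any 1 of the 6 libraries compared (0.0726 to 0.15), and without either WT HBSS library, TFE3 KO control replicate 2 or any DKO Torin library (0.0514 to 0.0563). PFKP in TFEB KO passed without TFEB KO control replicate 3 (0.0403), and PGK1 in DKO, at -0.19, passed without DKO control replicate 1 (0.00625). PFKP in TFEB KO also passed with a minimum value of 5 (0.0469), edgeR (0.0366), DESeq2 (0.0433) and plain CPM (0.35 on the log2 scale, adjusted p 0.00684). In a fit of only the libraries compared, HK1 missed the threshold in TFEB KO (0.0761) and DKO (0.0581) and PFKP in DKO (0.0746). The LDHA calls passed without any 1 library. With the shared column counted as WT Torin, none of the 6 calls against WT passed (0.0695 to 0.223), although that column enters these comparisons only through the spread that all groups share. Counted as WT HBSS, that column left all 6 in place.

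TFE3 KO and TFEB KO were also compared with each other. LDHA was higher in TFE3 KO than in TFEB KO, with a log2 difference of 0.31 ± 0.07 (SE, adjusted p 0.000874, limma), and so was TPI1, at 681 ± 46.9 (SD, n = 3) against 595 ± 39.5 (SD, n = 3), with 0.19 ± 0.07 (SE, adjusted p 0.0239). Of all genes, 29.9% passed beside these 2 of 10 members. With the shared column counted as WT Torin, neither passed (0.0644 for LDHA and 0.211 for TPI1). TPI1 missed the threshold without TFEB KO control replicate 3 (adjusted p 0.159) or TFE3 KO control replicate 1 (0.143) or 3 (0.081), and on plain CPM (0.25). PFKP, at -0.23 (adjusted p 0.0563), passed without TFEB KO control replicate 3 (0.0371) or TFE3 KO control replicate 1 (0.0331), and with a minimum value of 5 (0.048), edgeR (0.0393), DESeq2 (0.0469) or plain CPM (0.00688), where PGK1 passed too (0.0412). ENO1, at -0.08 (adjusted p 0.495), passed without TFEB KO control replicate 3 (0.0252).

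Under Torin, the KO lines were compared with WT Torin, which had 2 libraries. HK1 was higher in DKO, at 151, 146 and 146 against 116 and 114, with a log2 difference of 0.35 ± 0.09 (SE, adjusted p 0.00587, limma). LDHA was lower in DKO (-0.28 ± 0.08, SE, adjusted p 0.0178) and in TFE3 KO (-0.25 ± 0.08, SE, adjusted p 0.0439), where 1 library overlapped WT. ALDOA was lower in TFEB KO, at 612, 594 and 558 against 722 and 747, with -0.32 ± 0.08 (SE, adjusted p 0.00332). These are 1 member of 10 in TFE3 KO, 1 in TFEB KO and 2 in DKO, where 9.64%, 18.0% and 12.1% of all genes passed. HK2 differed from WT Torin by -0.24 (interval -0.50 to 0.02) in TFE3 KO, 0.23 (-0.03 to 0.49) in TFEB KO and 0.13 (-0.13 to 0.38) in DKO, given with no test. ENO1 was just outside the threshold in TFE3 KO (-0.28, adjusted p 0.0507) and in TFEB KO (-0.24, adjusted p 0.069).

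These calls depended on the WT Torin libraries. Without WT Torin replicate 2, LDHA missed the threshold in TFE3 KO (adjusted p 0.502) and in DKO (0.357). Without WT Torin replicate 3, HK1 missed it in DKO (0.0681) and ALDOA in TFEB KO (0.0633). LDHA in DKO also missed it without DKO Torin replicate 3 (0.0732). LDHA in TFE3 KO missed it without TFE3 KO Torin replicate 1 (0.0712) or 2 (0.255), WT control replicate 3, either of TFE3 KO control replicates 1 and 2, or DKO Torin replicate 2 (0.05003 to 0.0517). LDHA in TFE3 KO missed it with edgeR (0.0559) and in a fit of only the libraries compared (0.0675). ENO1 in TFE3 KO passed with edgeR (0.041), DESeq2 (0.0489), plain CPM (0.0304), median-of-ratios scaling (0.037) or a minimum value of 5 (0.046). It also passed with a replicate block (0.012) or only the libraries compared (0.00212), and missed with a pseudocount of 0.1 or no filter. In TFEB KO, ENO1 passed with the block (0.021) or only the libraries compared (0.00763). On plain CPM, ALDOA in TFEB KO missed it (-0.21, adjusted p 0.0582) and PFKP in TFEB KO passed (0.34, adjusted p 0.0193). Counting the shared column as WT Torin, HK1 in DKO missed it (0.15, adjusted p 0.358) and ENO1 in DKO passed (-0.30, adjusted p 0.0363). The HK2 difference in TFE3 KO was then -0.71, given with no test. ENO1 in TFE3 KO passed without any 1 TFEB KO control, TFEB KO Torin replicate 2 or 3, TFE3 KO control replicate 1 or TFE3 KO Torin replicate 1 (0.00808 to 0.0498). ENO1 in TFEB KO passed without TFEB KO control replicate 2 or 3, TFEB KO Torin replicate 2 or TFE3 KO Torin replicate 2 (0.0166 to 0.0454).

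**Figure D3:**
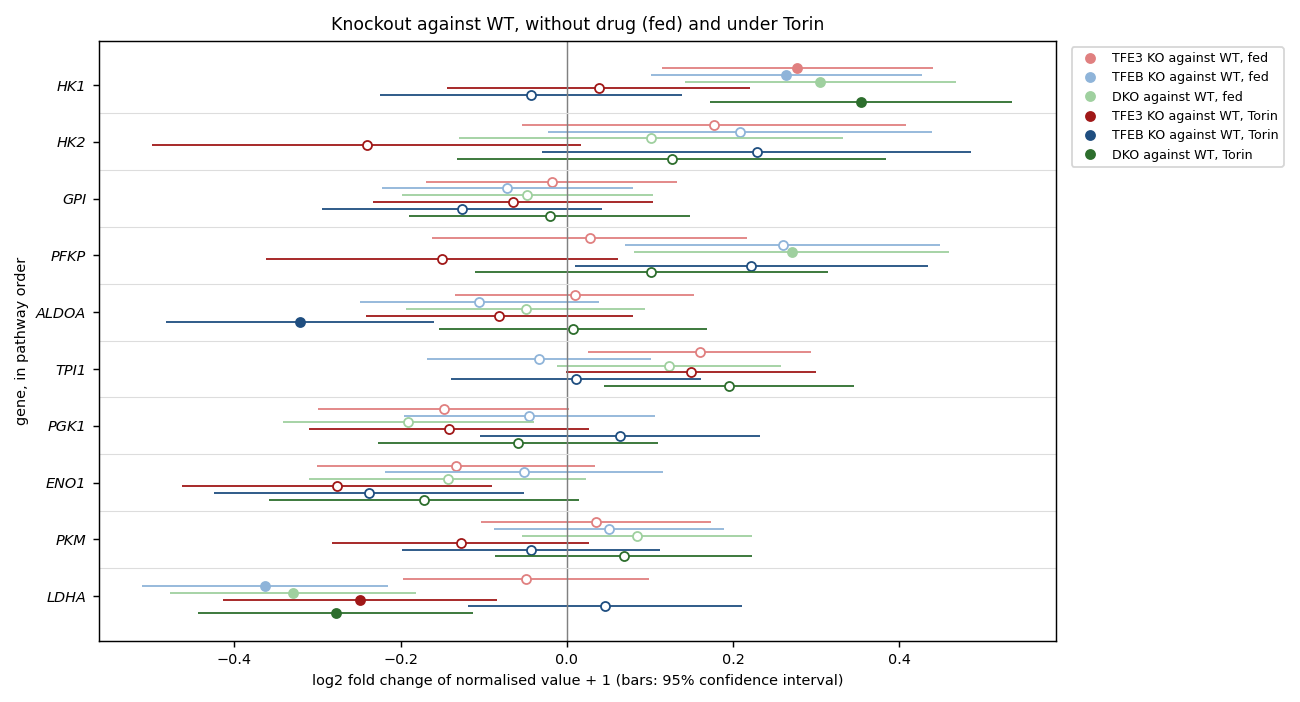
Log2 fold change of each enzyme (y axis, in pathway order) in a KO line against WT (x axis, log2 of the normalised value + 1), with 95% confidence intervals of the limma fit as bars, for the controls (fed, pale) and under Torin (dark); red is TFE3 KO, blue TFEB KO and green DKO. Filled points passed at an adjusted p under 0.05, and all values lie between -0.36 and 0.35.

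Whether the response to Torin differed between genotypes was tested as an interaction, the Torin difference in the KO line minus that in WT. LDHA in TFEB KO was the 1 member to pass, with 0.41 ± 0.11 (SE) on the log2 scale and adjusted p 0.0483 (limma). The LDHA difference was -0.95 in TFEB KO and -1.36 in WT. TFEB KO had the lower level without drug, and its Torin libraries overlapped those of WT. In TFE3 KO and DKO 0 members passed by limma, by edgeR or by DESeq2, and in limma 0 of the members other than HK2 had an unadjusted p under 0.05. The shares of all genes that passed were 1.06% (TFE3 KO), 1.16% (TFEB KO) and 0.506% (DKO). The LDHA call lay at the edge of the threshold. It was lost without any 1 of 17 of the 25 libraries, which include WT control replicates 1 and 3, WT Torin replicate 3, 2 of the TFEB KO controls and all TFEB KO Torin libraries (adjusted p 0.0514 to 0.34). For HK2 the interaction was -0.42 (interval -0.76 to -0.07) in TFE3 KO, 0.02 (-0.33 to 0.37) in TFEB KO and 0.02 (-0.32 to 0.37) in DKO, given with no test because the rule used these differences. The remaining interactions of members lay between -0.31 and 0.13.

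The other genes of glucose metabolism were followed with 6 lists of 66 genes, of which 59 were in the table and tested. Under Torin in WT, 15 of the 59 rose and 21 fell, in TFE3 KO 16 rose and 23 fell, in TFEB KO 10 rose and 23 fell, and in DKO 15 rose and 23 fell. In HBSS 16 rose and 10 fell. The shares of all genes that rose and fell are those given above for lower calls, and for higher calls under Torin 25.4% (DKO), 17.4% (TFEB KO), 25.4% (TFE3 KO) and 20.5% (WT). The lists thus held genes that moved in both directions under either treatment.

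Among the other isozymes of the pathway (12 in the table), 3 fell and 4 rose under Torin in WT. ENO2, the neuronal enolase, fell in all 4 genotypes, with log2 differences of -1.45 to -1.33, and in HBSS by 0.92. PKLR, the liver type of pyruvate kinase, rose by 1.42 in HBSS and by 0.65 to 1.32 under Torin over the 4 genotypes, on the log2 scale. GAPDH, which was not among the 10 members and is named after its values were seen, was 2801 ± 124 (SD, n = 3) in WT controls, 2661 ± 54.4 (SD, n = 2) in HBSS and 2849 ± 6.81 (SD, n = 2) under Torin. It did not pass under Torin in any genotype (log2 difference -0.14 to 0.03, adjusted p 0.0559 to 0.785). GAPDHS, the sperm form, rose under Torin in all 4 genotypes by 1.95 to 2.53 on the log2 scale. In WT it went from 1.07 ± 0.634 (SD, n = 3) to 10.6 ± 0.417 (SD, n = 2), and the TFE3 KO level was 1.70 ± 0.546 (SD, n = 3) without drug, 7 to 15 reads per library, and 9.45 ± 2.45 (SD, n = 3) under Torin, 37 to 59 reads.

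Of 9 glucose and lactate transporters, 5 fell under Torin in WT, TFE3 KO and TFEB KO and 4 in DKO, and 1, 0, 0 and 2 rose in the same order. SLC2A1 (GLUT1), the main glucose importer, fell from 149.6 ± 4.46 (SD, n = 3) to 79.9 ± 7.03 (SD, n = 2) in WT, a log2 difference of -0.90 (adjusted p 6.57e-10, limma), and in HBSS to 66.7 ± 9.43 (SD, n = 2), a difference of -1.16 (adjusted p 2.67e-13). SLC2A1 was also lower than WT in TFE3 KO without drug, at 93.4 ± 6.47 (SD, n = 3), by 0.68 on the log2 scale (adjusted p 2.9e-07), and did not pass in TFEB KO (0.10, adjusted p 0.509). TFE3 KO had less of it than TFEB KO (-0.78, adjusted p 4.01e-09). In DKO without drug, SLC2A1 was not among the 4 lowest differences from WT in the lists, which ended with PDK1 at -0.66. SLC16A7 (MCT2), a carrier of lactate and pyruvate, rose in HBSS by 1.15 and was 1.54 higher in HBSS than under Torin.

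Regulators of flux moved both ways. TXNIP, which lowers glucose uptake, rose from 43.6 ± 1.88 (SD, n = 3) to 119.9 ± 1.45 (SD, n = 2) under Torin in WT and to 131 ± 4.08 (SD, n = 2) in HBSS, with log2 differences of 1.44 and 1.57, and rose by 1.23 to 1.85 in the KO lines. PFKFB2, which makes the activator of phosphofructokinase, rose by 1.74 in HBSS and, under Torin, in all 4 genotypes, by 0.997 in WT, 1.22 in TFE3 KO, 0.69 in TFEB KO and 1.35 in DKO. TIGAR, which breaks that activator down, fell under Torin from 30.4 ± 1.63 (SD, n = 3) to 7.54 ± 0.0596 (SD, n = 2) in WT, a log2 difference of -1.88 (adjusted p 1.55e-13, limma), while HBSS left it at 28.1 ± 3.28 (SD, n = 2). In TFEB KO it fell less, from 28.7 ± 4.58 (SD, n = 3) to 17.7 ± 1.87 (SD, n = 3), and the interaction was 1.22 (adjusted p 0.00137).

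In the lists beyond glycolysis, 3 of 7 genes of pyruvate entry fell and 0 rose under Torin in WT, and in HBSS 3 rose and 1 fell. Of the 7 pentose phosphate genes, 4 fell and 2 rose under Torin in WT, and 2 fell and 1 rose in HBSS. Of 12 genes of gluconeogenesis and glycogen, 5 rose and 3 fell under Torin in WT and 5 rose and 2 fell in HBSS. PYGB, the brain glycogen phosphorylase, was lower without drug by 0.91 in DKO and by 0.33 in TFE3 KO against WT controls.

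**Figure D4:**
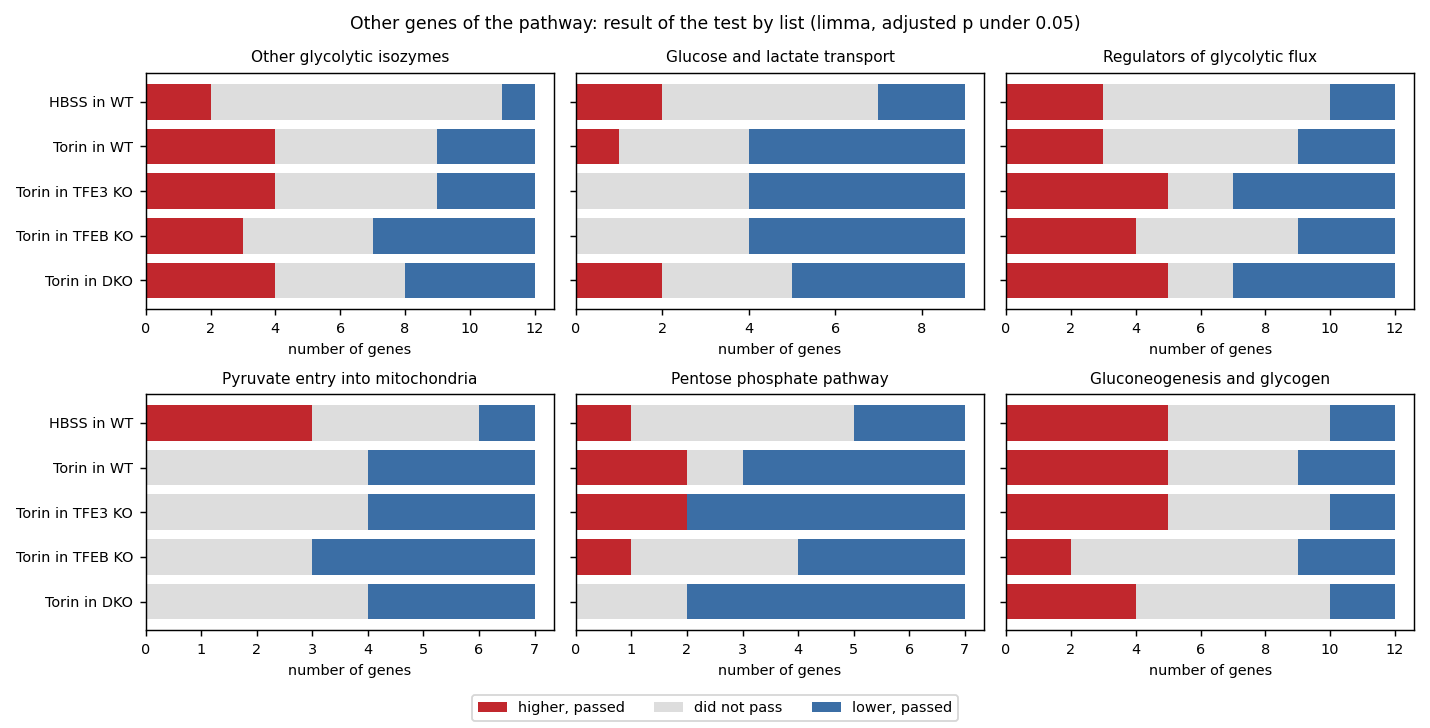
Number of genes (x axis) of 6 lists of glucose metabolism that passed as higher (red), passed as lower (blue) or did not pass (grey) at an adjusted p under 0.05 in limma, for HBSS in WT and for Torin in each genotype (y axis). Transporters fell under Torin in 4 or 5 of 9 cases per genotype, and of the 7 pyruvate entry genes 3 rose in HBSS and 0 under Torin.

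The genes whose group means were most like those of HK2 were UBE2L3, GJC1, PRADC1, PPIF and ZDHHC5, with Pearson r of 0.982 to 0.991 over the means of the 9 groups on the log2(value + 1) scale. Among the members, PKM (0.980), PGK1 (0.972) and LDHA (0.933) were most like HK2 and HK1 least (0.455). The 9 points share the Torin groups, which lie low in all of these genes, and the correlations are descriptions without a test.

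GENCODE lists pseudogenes named after 7 of the 10 members, 24 in all, among them 6 of LDHA, 5 of PKM and 4 each of ENO1 and TPI1. Of these only TPI1P2 had a row of its own in the table. How reads that match several places were counted is not given in the sources used here, so reads of a member and its copies may be mixed. ENO1-AS1 and SPSB2 overlap ENO1 and TPI1 on the opposite strand, and ATP7A overlaps PGK1 on the same strand.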

How the data were processed

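3′ mRNA-seq libraries of 501mel cells were analysed from 1 table of normalised values for 13523 genes. Per the submitters' processing notes, reads were checked with FastQC 0.11.9, trimmed with cutadapt 2.10, aligned to hg38 with STAR 2.7.8a and processed with edgeR. The read counter, the scaling and the filter on genes are not given in the sources used here. The deposited values were treated as a normalised signal, CPM divided by a factor per library. All values (100.0%, tolerance 0.001) were whole multiples of 1 read, which gave the reads back. Sums of the deposited signal ran from 899534 to 1141420 per library.

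The test took genes that reached a value of 1 in 3 or more libraries and used limma 3.58.1 (R 4.3.3, lmFit and eBayes with trend and robust) on log2(value + 1), with the 9 groups in 1 fit and Benjamini-Hochberg adjustment within each of 16 comparisons. Fold changes on this scale understate the change of low genes. Intervals cover 95%. The labels do not say whether libraries came from separate cultures, so p-values measure the spread between these libraries, which may be technical. The labels give no batch. The fit was tested on simulated data. Alternatives were a pseudocount of 0.1, a minimum value of 5 or none, other scalings, edgeR 4.0.16 and DESeq2 1.42.0 on the recovered reads, a replicate block, only the libraries compared, the shared column kept, and each library left out. On the recovered reads edgeR called 5473 genes for Torin in WT and limma 5724.

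The members and lists were chosen with earlier results of these data known. Named were all members, TFE3 and TFEB, the genes most like HK2 and, from the lists, genes among the 4 highest and 4 lowest log2 differences per comparison that passed with a mean of at least 5. GAPDH was added after its values were seen.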

Additional observations from a re-analysis of the deposited data

Results flagged for a closer look

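Some differences between responses or genotypes passed a test of the difference itself (limma, adjusted p under 0.05, log2 scale). The Torin difference of LDHA was 0.41 higher in TFEB KO than in WT. At adjusted p 0.0483 (limma) this call lay at the edge of the threshold. It was lost under several alternatives and without many of the single libraries. Between HBSS and Torin in WT, HBSS was higher by 0.46 for HK1, 0.32 for GPI, 0.42 for TPI1, 0.50 for PGK1, 0.24 for ENO1, 0.40 for PKM and 0.66 for LDHA. The set was chosen with HK2 known in both of these treatments, so these calls are no support for its choice and nothing is read from their number. Without drug, TFE3 KO was higher than TFEB KO by 0.19 for TPI1 and 0.31 for LDHA. The ENO1 call and the TPI1 call between the KO lines were also lost under several alternatives. With the shared column counted as WT Torin, only LDHA between HBSS and Torin still passed. Groups of 2 or 3 libraries are too small to test for a sample that stands apart.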

How the results depend on the processing

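The number of members that passed was recomputed under each alternative, with HK2 counted. With only the libraries compared, it went from 2 to 1 in TFEB KO and from 3 to 1 in DKO without drug, and under Torin from 1 to 2 in TFEB KO and from 2 to 4 in DKO. With the shared column kept as WT Torin or under both labels, it went to 0 in TFE3 KO, TFEB KO and DKO against WT and in TFE3 KO against TFEB KO without drug, to 5 in TFE3 KO and 2 in TFEB KO under Torin, and for HBSS against Torin from 8 to 2 or 5. With a minimum value of 5, plain CPM, edgeR or DESeq2, it went from 2 to 3 in TFEB KO without drug and for TFE3 KO against TFEB KO. For HBSS against Torin it went from 8 to 7 with median-of-ratios scaling, edgeR, DESeq2 or the block, to 6 on plain CPM and to 9 with only the libraries compared, and on plain CPM from 2 to 3 in DKO under Torin. In TFE3 KO under Torin it was 2 with a minimum value of 5, median-of-ratios scaling, plain CPM or DESeq2. The interaction in TFEB KO went from 1 to 0 with a pseudocount of 0.1, no filter, median-of-ratios scaling, edgeR, only the libraries compared or the column kept. The cause was not tested. Plain CPM shifted the median of all genes by -0.11 for HBSS in WT, 0.11 for TFEB KO under Torin and -0.14 for HBSS against Torin.

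Counts of members for HBSS in WT and for Torin within each genotype are not repeated, because the set was chosen on these treatments. Without drug, leaving out 1 library gave 0 to 1 members in TFE3 KO, 1 to 3 in TFEB KO, 1 to 3 in DKO and 1 to 3 for TFE3 KO against TFEB KO. Under Torin it gave 0 to 2 in TFE3 KO, 0 to 2 in TFEB KO and 1 to 2 in DKO, 0 to 1 for the interaction in TFEB KO, 0 to 0 for the other interactions, and 7 to 9 for HBSS against Torin. A group left with 1 library was assumed to vary like the others. Over 5920 values of single members, 5709 counted as unchanged, 110 lost a call, 54 gained one and 0 calls reversed. For the treatment comparisons and others given without a test, unchanged meant a move smaller than the spread, whatever the call. There 47 values moved by more. In 123 values the sign differed with neither value past the threshold. With the shared column kept as WT HBSS, all 160 values of single members counted as unchanged.

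Replicate numbers did not pair the libraries. Deviations from the group means correlated with r of -0.19 to 0.16 for 92 pairs with the same number and -0.15 to 0.25 for 185 other pairs. With a replicate block, 2 members passed in TFEB KO under Torin in place of 1, and ENO1 between HBSS and Torin (adjusted p 0.105, limma) and LDHA in TFE3 KO under Torin (0.0513) missed the threshold.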
